A study of Homo sapiens with 12 samples.

Results

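The genes described here are 10 transcripts that lie downstream of the kinase ERK: the dual-specificity phosphatase genes DUSP4, DUSP5 and DUSP6, the Sprouty genes SPRY1, SPRY2 and SPRY4, the Spred genes SPRED1 and SPRED2, and the ETS factor genes ETV4 and ETV5. Members were taken by symbol from a list of known ERK feedback and ETV genes, and each had a row among the 20531 genes counted in every library. Of the 10, 9 had enough counts to be tested. ETV5 had between 0 and 2 counts in each of the 12 libraries, under the 3 counts that were taken as the limit of detection at this depth.

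RNAseq was performed on SKBR-3, an established breast cancer line with HER2 amplification and without the estrogen receptor, with 3 samples in each of 4 groups. The cells received either a non-targeting siRNA pool (siNT) or a pool against FOXA1 (siFOXA1), and then DMSO or 300 nM lapatinib, an inhibitor of the HER2 and EGFR kinases, for 24 h. The groups are named siNT DMSO, siNT lapatinib, siFOXA1 DMSO and siFOXA1 lapatinib. The labels give 48 h of siRNA before the drug whereas the study's methods give 24 h, and all 12 samples come from this single cell line in culture. The question behind the design was which transcriptional responses to HER2 inhibition need FOXA1, a forkhead pioneer factor.

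HER2 signals through RAS, RAF and MEK to ERK, and active ERK induces genes that restrain the same cascade. DUSP phosphatases remove the activating phosphates from ERK, Sprouty proteins interrupt the signal between the receptor and RAS, and Spred proteins bring neurofibromin to the membrane to switch RAS off. ETV4 and ETV5 are activators of the PEA3 subfamily of ETS factors, and several of these genes are held down by the repressor CIC until ERK inactivates it. The transcripts are therefore often used to read ERK output, although ERK phosphorylation itself is not among the values analysed here.

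Promoter sequences were available for some of these genes and were searched for short motifs. RefSeq windows of GRCh38.p14, each reaching from 250 bases before to 50 after a transcription start, were matched by symbol for 6 of the 10 genes (10 windows). They were searched on both strands for the CIC octamers TGAATGAA, TCAATGAA, TGAATGGA and TCAATGGA, an ETS site (CCGGAAGT), AP-1 sites (TGACTCA and TGAGTCA, which are each other's reverse complement), a CRE (TGACGTCA) and forkhead heptamers (TGTTTAC and TGTTTGC), none of which contains another. Of all 35116 windows, 3.77% held a CIC octamer, 4.14% the ETS site, 4.95% an AP-1 site, 1.85% the CRE and 7.17% a forkhead heptamer. DUSP6 held 2 CIC octamers, both TCAATGGA read on the other strand. The first base of the upstream copy lies 24 bases before the start, and the other copy begins at base 2 after it. DUSP6 also held a forkhead heptamer that begins 180 bases before the start. The 250 upstream bases of DUSP6 and of SPRY4 are shown because DUSP6 held the octamers while SPRY4, whose counts changed most in siNT cells, held none of these motifs. The 250 DUSP6 bases shown end just before the gene in the GENCODE annotation (GRCh38), whereas the SPRY4 window lies inside the longer GENCODE gene. Capitals mark the motif matches.
DUSP6 promoter, upstream bases, chr12:89352502-89352751, minus strand: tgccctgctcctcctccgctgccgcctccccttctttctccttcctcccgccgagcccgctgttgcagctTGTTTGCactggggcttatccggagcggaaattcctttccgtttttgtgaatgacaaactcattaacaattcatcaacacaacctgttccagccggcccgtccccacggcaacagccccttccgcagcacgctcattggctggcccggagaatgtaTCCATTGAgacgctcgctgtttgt
SPRY4 promoter, upstream bases, chr5:142324248-142324497, minus strand: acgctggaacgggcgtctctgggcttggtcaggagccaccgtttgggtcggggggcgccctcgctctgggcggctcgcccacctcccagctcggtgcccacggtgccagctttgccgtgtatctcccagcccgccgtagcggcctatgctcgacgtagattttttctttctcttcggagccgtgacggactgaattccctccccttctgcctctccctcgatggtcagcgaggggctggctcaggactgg
DUSP6 octamer after the start (chr12:89352493-89352500) with 6 bases on each side: tttgtaTCCATTGAggagct
SPRED2 AP-1 match at its inner start (chr2:65366778-65366784) with 6 bases on each side: ctcggaTGACTCAtccggt

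SPRED2 has 2 windows. The outer window held a forkhead heptamer that begins 141 bases before the start, and the inner window held the AP-1 match shown, which begins 6 bases before it. No match was found in the windows of SPRY1, SPRY2, SPRY4 or SPRED1, which says only that these letters are not in those 300 bases. A match is a description of sequence, and binding was not measured in these samples.

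The libraries held between 25749578 and 32271850 estimated counts, with a median of 30542430. FOXA1, the target of the siRNA, had 8308 to 8767 normalized counts in siNT DMSO and 1160 to 1564 in siFOXA1 DMSO, 16.2% of the siNT level, and 15.5% of it in lapatinib. Lapatinib itself raised FOXA1, by 0.60 (adjusted p = 2.13e-05) on the log2 scale in siNT cells and by 0.54 (adjusted p = 0.0129) in siFOXA1 cells. The line markers ERBB2, GRB7, KRT8, KRT18, KRT19 and EPCAM were abundant in all 12 libraries (lowest TPM 176), and the hormone receptor genes ESR1 and PGR had 12 to 42 counts and at most 1 count. Lapatinib raised ERBB2 (1.01 on the log2 scale in siNT cells and 0.68 in siFOXA1 cells) and GRB7 (2.11 and 1.98). It lowered EPCAM (-0.63 and -0.12). The FOXA1 siRNA lowered 4 of the 6 line markers in DMSO and 5 in lapatinib, and raised none. Over all genes, 21.3% and 22.2% were lower. Of markers of other cell types, PTPRC (0 to 5 counts), CD3E (1 to 9), PECAM1 (0 to 6), COL1A2 (0 to 2) and DCN (0 to 5) were at or near 0. CD68 had 450 to 1299 counts, COL1A1 240 to 546 and VWF 42 to 95. VWF, the only endothelial marker with enough counts to be tested, was called lower with the FOXA1 siRNA in DMSO (log2 fold change -0.89). With the drug, CD68 was called higher (0.89 in siNT cells and 0.65 in siFOXA1 cells) and COL1A1 lower (-0.65 and -0.33). ESR1 was also called higher with the drug (1.24 and 1.49). The summed TPM of the 3 immune markers was 15.1 to 24.6 in siNT DMSO and 28.2 to 38.2 in siNT lapatinib, and 21.1 to 28.4 and 31.2 to 42.8 in the siFOXA1 groups, almost all of it from CD68. The summed TPM of the fibroblast markers was 4.94 to 5.62 and 3.10 to 3.94 in the siNT groups and 4.10 to 5.43 and 3.42 to 4.16 in the siFOXA1 groups, and that of the endothelial markers stayed between 0.30 and 0.70. CD68 is also transcribed in many non-immune cells, and the part of these changes in the results was not tested. In 29 of 36 cases (9 genes in 4 groups), the library numbered 2 had the highest normalized count of its group for these genes.

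Levels can be compared between genes only per length, so the deposited TPM was used for their order. In siNT DMSO, DUSP4 stood far above the rest at 82.9 TPM, which was 57.5% of the summed TPM of the 10 genes. SPRED2 followed at 20.5 TPM, and neither of these ranges overlapped the next gene. SPRY1 (10.8 TPM), DUSP5 (8.76), ETV4 (6.99), SPRY4 (6.55) and SPRED1 (4.75) formed a middle series in which each gene overlapped its neighbor. SPRY2 (2.21 TPM) and DUSP6 (0.79) were lower, without overlap, and ETV5 was at 0.00667 TPM.

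Lapatinib rearranged this order. In siNT lapatinib, SPRY1 moved to second place at 14.9 TPM, above SPRED2 at 10.9 TPM and without overlap. ETV4 and SPRY4 dropped to 0.533 and 0.343 TPM, in the range of DUSP6 at 0.51 TPM, and these neighbors overlapped. In siFOXA1 DMSO the top of the order was DUSP4 (62.4 TPM), SPRED2 (14.6) and SPRY1 (14.2), and the last 2 overlapped. In siFOXA1 lapatinib, DUSP4 was lowest of the 4 groups at 27.2 TPM but still held 44.5% of the sum.

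**Figure D1:**
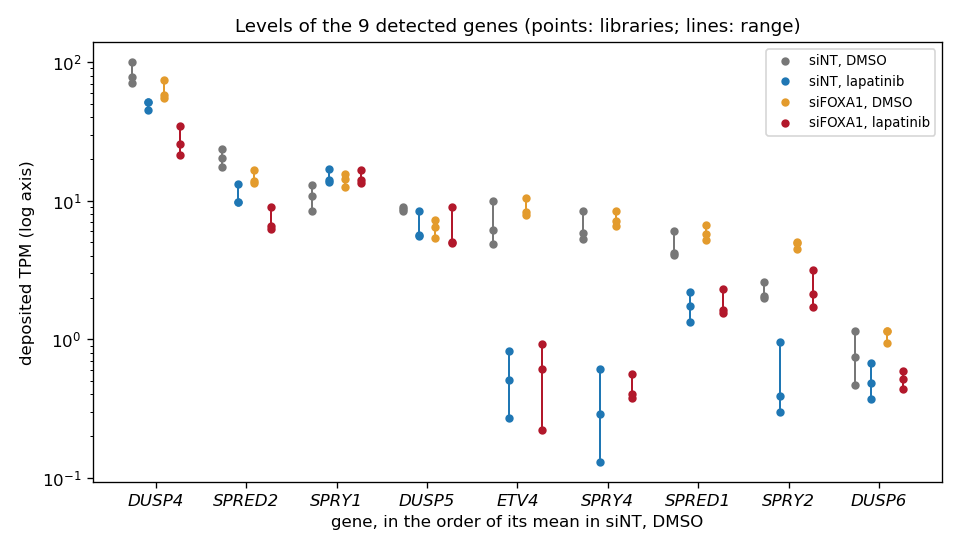
Deposited TPM on a log axis of the 9 detected genes in the 4 groups, where each point is a library and the line spans the 3 libraries. DUSP4 is highest in every group, and ETV4 and SPRY4 drop from 6.99 and 6.55 TPM in siNT DMSO to 0.533 and 0.343 TPM in siNT lapatinib.

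Lapatinib in siNT cells lowered 6 of the 9 tested genes (DUSP4, SPRY2, SPRY4, SPRED1, SPRED2 and ETV4) and raised SPRY1, by edgeR's quasi-likelihood test at a Benjamini-Hochberg adjusted p under 0.05. DUSP5 and DUSP6 did not pass. Lapatinib lowered 29.2% and raised 30.5% of all 13713 genes tested in this comparison, so a call by itself is common. With a log2 fold change of at least 1 as well, 4 of the 9 were lower (SPRY2, SPRY4, SPRED1 and ETV4) and none was higher, against 7.13% lower and 6.64% higher over all genes. The median log2 fold change of the 9 was -0.83 and that of all genes was 0.03. For 8 of the 9, the 3 lapatinib libraries did not overlap the 3 DMSO libraries, which held for 66.3% of all genes tested.

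In siFOXA1 cells, lapatinib lowered 7 of the 9 (DUSP4, DUSP6, SPRY2, SPRY4, SPRED1, SPRED2 and ETV4) and raised none, while DUSP5 and SPRY1 did not pass. Over all 13745 genes, 29.1% were lower and 29.0% higher. Past the fold limit, 6 of the 9 were lower and none was higher, against 5.12% lower and 4.93% higher over all genes. The median log2 fold change of the 9 was -1.07 and that of all genes 0.006. The groups did not overlap for 7 of the 9, against 65.3% of all genes. In these bulk samples, less RNA per cell and fewer cells that carry the transcript cannot be told apart. The labels do not say whether replicates were separate cultures, so the p-values measure only the spread between these samples.

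**Figure D2:**
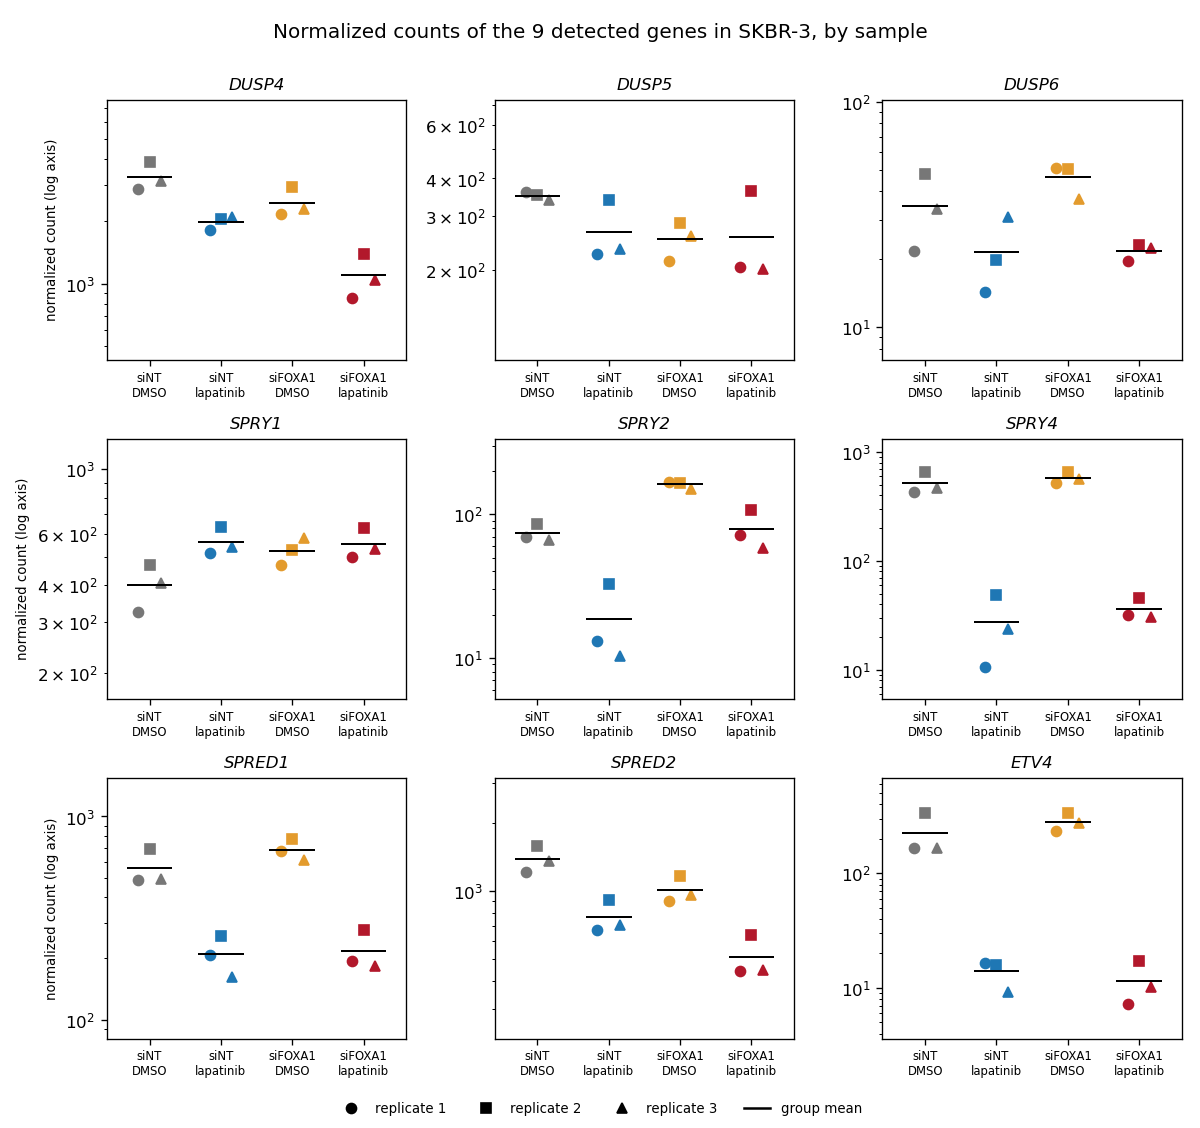
Normalized counts on a log axis of the 9 detected genes in each of the 12 libraries, by group, with a symbol for each replicate number and a line at the group mean. SPRY4 and ETV4 separate most between DMSO and lapatinib, with no lapatinib library above 48.7 and no DMSO library under 166.8 normalized counts.

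Among the phosphatases, DUSP4, which encodes a nuclear phosphatase (chr8:29333064-29350684), was the most abundant and was lowered by the drug with either siRNA. DUSP4 had 2866, 3856 and 3131 normalized counts in siNT DMSO and 1815, 2055 and 2104 in siNT lapatinib. It had 2175, 2910 and 2289 in siFOXA1 DMSO and 854.5, 1394 and 1040 in siFOXA1 lapatinib, the lowest group, and the drug groups did not overlap their DMSO groups. Its fitted level under the drug was 61.5% of DMSO in siNT cells (log2 fold change -0.70 ± 0.11 SE, adjusted p = 0.000899) and 44.9% in siFOXA1 cells (-1.16 ± 0.175, adjusted p = 0.000659).

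DUSP5, which encodes a second nuclear phosphatase specific to ERK, behaved otherwise. Its normalized counts were 359.6, 354 and 340.3 in siNT DMSO, a narrow range, and 225, 339 and 234 in siNT lapatinib. These groups did not overlap, but replicate 2 of the drug group lay close to the controls. The log2 fold change of -0.38 (95% confidence interval -0.73 to -0.02) missed the threshold at an adjusted p of 0.0643. It passed with the replicate number as a block (adjusted p = 0.0229), without siNT lapatinib replicate 2 (log2 fold change -0.59, adjusted p = 0.00147) and with DESeq2 (adjusted p = 0.0445). In siFOXA1 cells DUSP5 was at 214, 286 and 258 normalized counts in DMSO and at 204, 364 and 201 in lapatinib, overlapping groups with a log2 fold change of 0.03 (-0.51 to 0.57).

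DUSP6, which encodes the cytoplasmic ERK phosphatase (chr12:89347235-89352501), was scarce. It had only 12 to 54 estimated counts in a library, and counting error alone is large at that depth. Normalized counts were 21.7, 47.6 and 33.55 in siNT DMSO and 14.3, 19.9 and 30.8 in siNT lapatinib, which overlapped. The log2 fold change in siNT cells was -0.63 with a 95% confidence interval from -1.504 to 0.25 (adjusted p = 0.186). The interval includes both no change and a 2-fold fall, and the siNT DMSO libraries themselves spread from 21.7 to 47.6. In siFOXA1 cells DUSP6 had 50.96, 50.25 and 37.1 normalized counts in DMSO and 19.6, 23.1 and 22.5 in lapatinib, which did not overlap, and it fell by 1.07 on the log2 scale (SE 0.22, adjusted p = 0.00316). The drug effect in the 2 siRNA backgrounds did not differ past the threshold (interaction -0.43, 95% confidence interval -1.41 to 0.54). In the GENCODE annotation a transcript on the opposite strand overlaps DUSP6 exons. The sources used here do not settle if reads were counted by strand, so its reads could be included.

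The Sprouty genes split under lapatinib. SPRY4 (chr5:142310427-142326455) had 433, 656 and 468 normalized counts in siNT DMSO and 10.7, 48.7 and 23.6 in siNT lapatinib. In siFOXA1 cells it had 522, 659 and 566 in DMSO and 32.03, 45.2 and 30.7 in lapatinib. All 6 drug libraries were far under all 6 DMSO libraries, and replicate 2 was the highest of each group. SPRY4 was 17.96-fold lower in siNT cells (log2 fold change -4.17 ± 0.37 SE, adjusted p = 3.19e-05) and 15.98-fold lower in siFOXA1 cells (-4.00 ± 0.16, adjusted p = 2.28e-06). Without siNT lapatinib replicate 2 the log2 fold change in siNT cells was -4.85.

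SPRY2 (chr13:80335976-80341126) was lower with the drug and higher with the FOXA1 siRNA. It had 69.9, 85.3 and 66.2 normalized counts in siNT DMSO and 13.1, 32.8 and 10.3 in siNT lapatinib. It had 168, 167 and 151 in siFOXA1 DMSO and 71.3, 107 and 58.3 in siFOXA1 lapatinib. The drug thus brought SPRY2 in siFOXA1 cells to a level that overlapped that of siNT cells without the drug. The fold was 3.82-fold lower in siNT cells (log2 fold change -1.93 ± 0.38 SE, adjusted p = 0.00239) and 2.04-fold lower in siFOXA1 cells (-1.03 ± 0.21, adjusted p = 0.0031). Without siNT lapatinib replicate 2, the former was -2.63.

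SPRY1 went the other way. It had 325, 471 and 406.5 normalized counts in siNT DMSO and 517, 635 and 539.7 in siNT lapatinib, which did not overlap. It rose 1.43-fold (log2 fold change 0.51 ± 0.14 SE, adjusted p = 0.0148). In siFOXA1 cells SPRY1 had 469, 527 and 582 in DMSO and 501, 628.5 and 532 in lapatinib, overlapping groups with a log2 fold change of 0.08 (95% confidence interval -0.17 to 0.34). All of these groups except siNT DMSO lay within 469 and 635 normalized counts.

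Both Spred genes fell with the drug in both backgrounds. SPRED1 had 485, 691 and 493 normalized counts in siNT DMSO and 208, 258 and 161 in siNT lapatinib, and 678, 772 and 611 against 194, 275 and 184 in the siFOXA1 groups. It was 2.62-fold lower in siNT cells (log2 fold change -1.39 ± 0.20 SE, adjusted p = 0.00046) and 3.13-fold lower in siFOXA1 cells (-1.65 ± 0.16, adjusted p = 5.94e-05). SPRED2 was more abundant and changed less. It had 1218, 1581 and 1360 in siNT DMSO and 675, 914.5 and 710.0 in siNT lapatinib, and 902, 1167 and 962 against 445, 641 and 449 in the siFOXA1 groups. SPRED2 fell to 56.1% (log2 fold change -0.83 ± 0.14, adjusted p = 0.000894) and 51.0% (-0.97 ± 0.15, adjusted p = 0.000872) of its DMSO levels. The drug and DMSO libraries of both genes did not overlap with either siRNA.

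ETV4 (chr17:43527844-43579620) was, with SPRY4, the most changed of the 9. It had 167, 339 and 167 normalized counts in siNT DMSO, where replicate 2 stood above the others, and 16.6, 15.9 and 9.23 in siNT lapatinib. In siFOXA1 cells it had 234, 334 and 274 in DMSO and 7.23, 17.3 and 10.2 in lapatinib, again with no overlap. ETV4 was 15.9-fold lower in siNT cells (log2 fold change -3.99 ± 0.39 SE, adjusted p = 5.73e-05) and 23.6-fold lower in siFOXA1 cells (-4.56 ± 0.26, adjusted p = 6.26e-06). The lapatinib libraries held only 9 to 16 estimated counts of ETV4 in siNT cells and 7 to 18 in siFOXA1 cells, where counting error is large. With a filter of 10 counts in every sample, ETV4 was not tested in either drug comparison. Exons of DHX8, which is in the count table, overlap ETV4 on the opposite strand. ETV5 exons overlap DGKG on its own strand, and ETV5 stayed under the limit of detection in every group, so no fold is given.

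ETV1, the remaining member of the PEA3 subfamily, belongs to the list of other ETS factors and was described in full after its values were seen. It had 62.1, 41.65 and 71.9 normalized counts in siNT DMSO and 5.94, 7.95 and 8.21 in siNT lapatinib. It had 288, 283 and 292 in siFOXA1 DMSO and 16.5, 21.1 and 15.35 in siFOXA1 lapatinib, and none of these groups overlapped another. ETV1 fell by 2.94 on the log2 scale with the drug in siNT cells (SE 0.32, adjusted p = 9.12e-05) and was 16.02-fold lower in siFOXA1 cells (-4.00 ± 0.15, adjusted p = 1.73e-06). With the FOXA1 siRNA it was 4.95-fold higher in DMSO (log2 fold change 2.31 ± 0.18, adjusted p = 5.21e-05) and 2.35-fold higher in lapatinib (1.23 ± 0.32, adjusted p = 0.014). The last of these calls was lost with DESeq2 (adjusted p = 0.0766) and, in edgeR, without the libraries numbered 2 (0.0578). ETV4 did not pass with the siRNA in either drug state, with log2 fold changes of 0.34 (95% confidence interval -0.33 to 0.999) and -0.25 (-1.20 to 0.70). By TPM, ETV1 reached 3.23 in siFOXA1 DMSO, under ETV4 at 8.88 TPM in the same group.

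**Figure D3:**
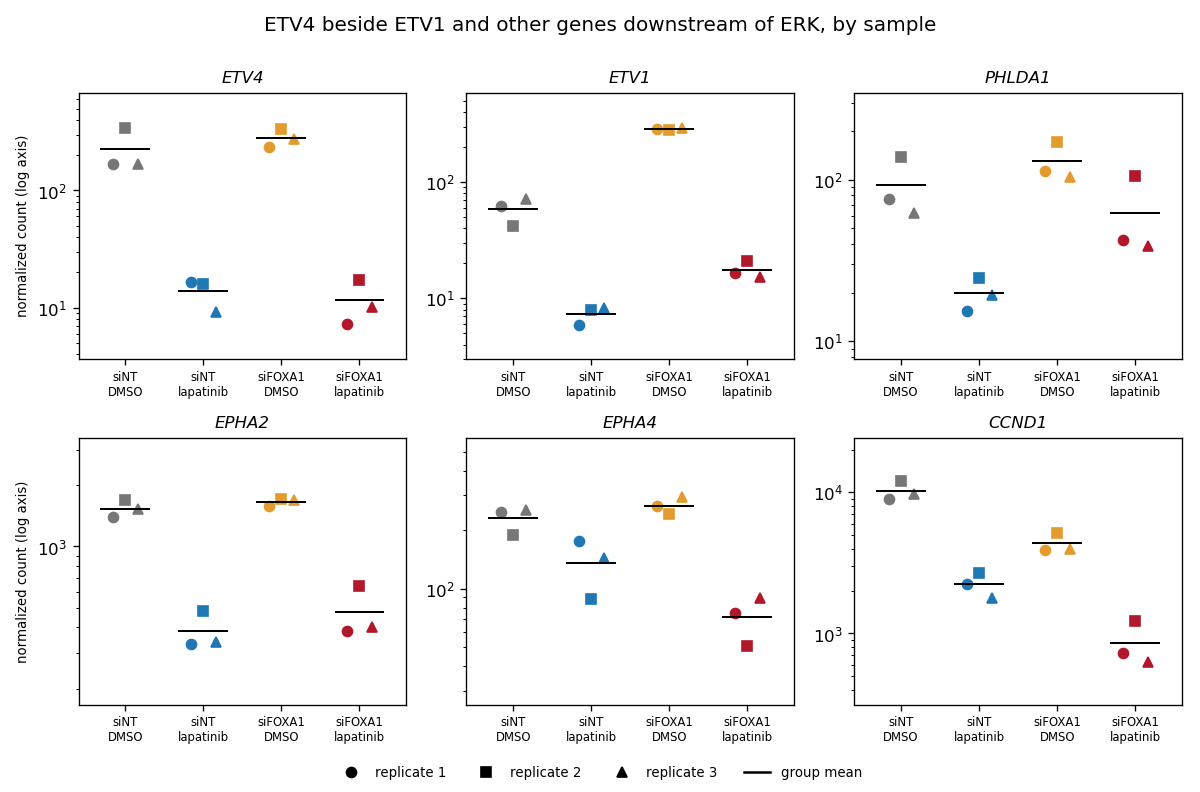
Normalized counts on a log axis of ETV4, ETV1 and 4 other genes downstream of ERK in each library, by group, with a symbol for each replicate number and a line at the group mean. ETV1 is at 283 to 292 in siFOXA1 DMSO against 41.65 to 71.9 in siNT DMSO, whereas the ETV4 libraries of these groups overlap.

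Ratios of counts between paralogs within a library do not depend on its depth, and they show the balance within each family. The ratio of SPRY4 to SPRY1 was 1.29 ± 0.13 (SD, n = 3) in siNT DMSO and 0.047 ± 0.028 in siNT lapatinib, and 1.11 ± 0.14 and 0.0645 ± 0.0071 in the siFOXA1 groups. SPRY4 thus went from the level of SPRY1 counts to a small share of them. The ratio of SPRED1 to SPRED2 was 0.399 ± 0.038 in siNT DMSO, 0.273 ± 0.042 in siNT lapatinib, 0.683 ± 0.061 in siFOXA1 DMSO and 0.425 ± 0.013 in siFOXA1 lapatinib. It was lower with the drug in each background and higher with the FOXA1 siRNA in each drug state, with no overlap in any of these 4 comparisons. The ratio of DUSP4 to DUSP5 was 9.35 ± 1.47, 7.71 ± 1.5, 9.74 ± 0.75 and 4.40 ± 0.70 in the same order of groups, and only siFOXA1 lapatinib lay apart from the others. Each non-overlapping ratio gave an exact two-sided permutation p of 0.1, the smallest that 3 samples against 3 allow, and an adjusted p of 0.133 over the 16 comparisons of ratios made.

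**Figure D4:**
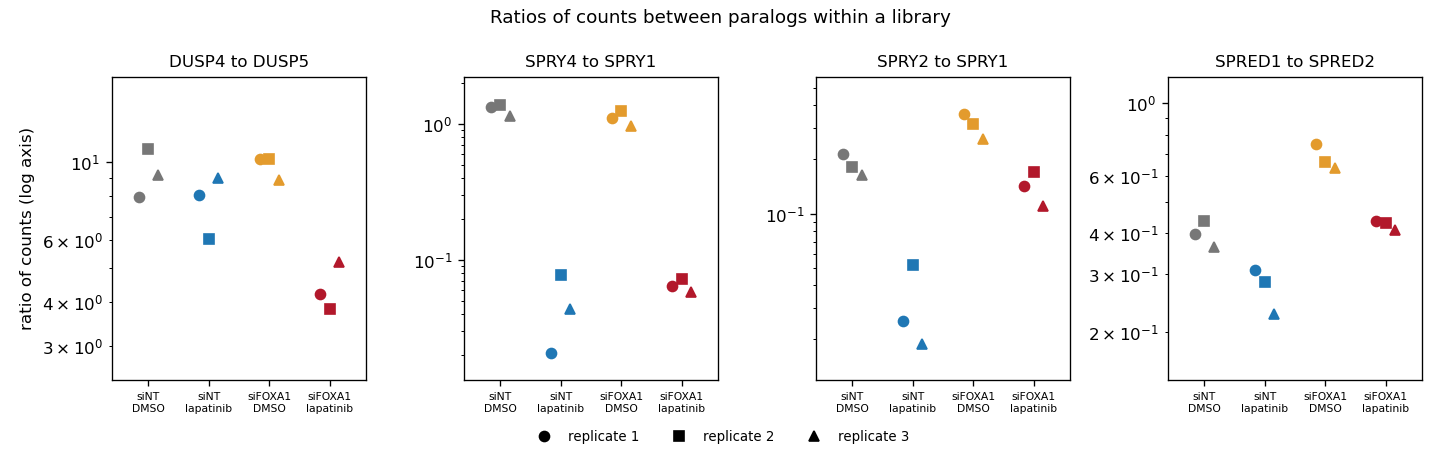
Ratios of estimated counts between paralogs in each library on log axes, by group, with a symbol for each replicate number. The ratio of SPRY4 to SPRY1 is 0.974 to 1.39 in the 6 DMSO libraries and 0.0207 to 0.0767 in the 6 lapatinib libraries.

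The FOXA1 siRNA moved fewer of these genes than the drug did in the fits without a block. In DMSO it raised SPRY2 and lowered DUSP4, DUSP5 and SPRED2, while 5 of the 9 did not pass. Over all 13694 genes, 21.9% were higher and 21.3% lower. With a log2 fold change of at least 1, only SPRY2 remained higher and none was lower, against 4.06% higher and 2.77% lower over all genes. The median log2 fold change of the 9 was 0.32 and that of all genes -0.005. The groups did not overlap for 3 of the 9, a smaller share than the 53.7% of all genes. Because these comparisons use the same 4 groups as the drug comparisons, their values are not independent of those above.

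SPRY2 was 2.21-fold higher with the FOXA1 siRNA in DMSO (log2 fold change 1.15 ± 0.14 SE, adjusted p = 0.000554), with no overlap and higher in 3 of 3 same-numbered pairs. DUSP5 fell by 0.46 (SE 0.12, adjusted p = 0.0149) and SPRED2 by 0.44 (SE 0.13, adjusted p = 0.0232) on the log2 scale, both without overlap. DUSP5 lost its call without siNT DMSO replicate 1 (adjusted p = 0.0516). SPRED2 lost it without siFOXA1 DMSO replicate 1 (adjusted p = 0.0774) or 3 (0.0814) and without siNT DMSO replicate 3 (0.054). DUSP4 fell by 0.41 (SE 0.14, adjusted p = 0.0488), its groups overlapped, and it lost the call when siFOXA1 DMSO replicate 1 (adjusted p = 0.144) or 3 (0.147) or siNT DMSO replicate 2 (0.0999) or 3 (0.0802) was left out. The DUSP4 call was also lost with a filter of 10 counts in every sample (0.0501), with upper-quartile scaling (0.0591) and with all 12 samples in a single model (0.0537), and the DUSP5 call with the last of these (0.0995).

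Replicate numbers marked samples that deviated together, and the block on that number changed the count for the FOXA1 siRNA in DMSO. With the block, 5 of the 9 rose in place of 1, while calls over all genes also became more common, at 30.3% higher and 30.2% lower. These were SPRY2 and, in addition, SPRY1 (log2 fold change 0.41, adjusted p = 0.00178), SPRY4 (0.19, adjusted p = 0.0406), SPRED1 (0.32, adjusted p = 0.00245) and ETV4 (0.37, adjusted p = 0.0319). Without the block their log2 fold changes were 0.40, 0.18, 0.32 and 0.34, so the estimates hardly moved. The same 5 were higher when siNT DMSO replicate 2, the highest library of its group for 8 of the 9 genes, was left out (23.6% of all genes higher), with ETV4 at 0.77 and SPRED1 at 0.51. Leaving out the highest control library raises such estimates by itself, so this fit is not separate from the result with the block. SPRY1, SPRY4, SPRED1 and ETV4 each passed in only this 1 of the 6 fits with a library left out. Among these genes, only SPRY1 also passed without the block in DESeq2 (adjusted p = 0.0305) and in edgeR with all 12 samples in a single model (0.0376). DUSP4 (adjusted p = 3.68e-06), DUSP5 (0.00176) and SPRED2 (1.46e-05) also passed with the block, all lower.

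In lapatinib, the FOXA1 siRNA raised SPRY2 and lowered DUSP4 and SPRED2, and 6 of the 9 did not pass. Over all 13727 genes, 22.7% were higher and 22.2% lower, and past the fold limit SPRY2 alone was called, against 4.51% higher and 3.9% lower over all genes. The median log2 fold change of the 9 was -0.03 and that of all genes -0.005, and 3 of the 9 did not overlap, against 55.5% of all genes. SPRY2 was 4.12-fold higher (log2 fold change 2.04 ± 0.41 SE, adjusted p = 0.00469), or 2.74 on the log2 scale without siNT lapatinib replicate 2. DUSP4 fell to 54.8% (-0.87 ± 0.16, adjusted p = 0.0027). SPRED2 fell to 66.5% (-0.59 ± 0.17, adjusted p = 0.0206), a call lost without siFOXA1 lapatinib replicate 1 (adjusted p = 0.0778) or 3 (0.0763).

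**Figure D5:**
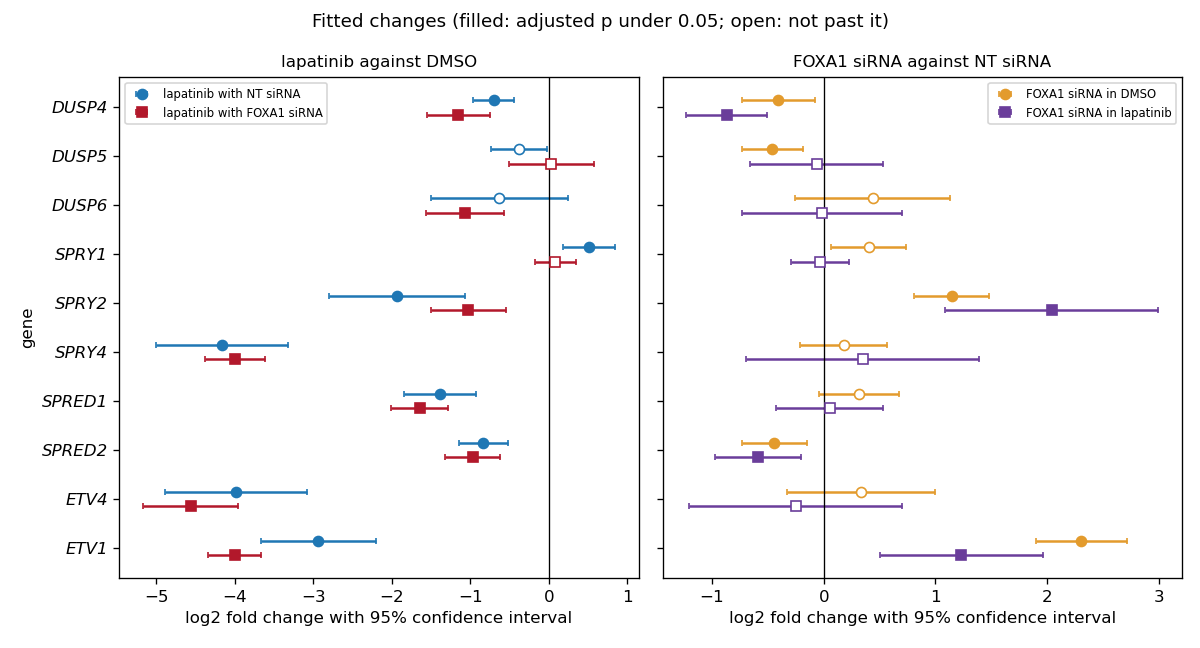
Fitted log2 fold changes with 95% confidence intervals of the 9 tested genes and ETV1, for lapatinib against DMSO with each siRNA (left) and for FOXA1 siRNA against NT siRNA in each drug state (right), where filled symbols passed an adjusted p of 0.05. Among the 9, SPRY4 (-4.17 and -4.00) and ETV4 (-3.99 and -4.56) lie furthest to the left for the drug. SPRY2 (1.15 and 2.04) lies furthest to the right among the 9 for the siRNA, where ETV1 is at 2.31 and 1.23.

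Whether the drug effect differed between the siRNA backgrounds was tested with an interaction term over all 12 samples. None of the 9 passed, against 3.99% of all 14012 genes with a positive and 3.2% with a negative interaction. None had an unadjusted p under 0.05 with edgeR (the lowest was 0.0536, for SPRY1), and DESeq2 also called none. SPRY2 had the largest estimate (0.91, 95% confidence interval -0.05 to 1.88, adjusted p = 0.252), and DUSP4 was at -0.44 (-0.95 to 0.06, adjusted p = 0.297). With the replicate block, DUSP4 (-0.46, adjusted p = 0.011) and SPRY1 (-0.42, adjusted p = 0.0243) passed with a negative interaction, in a fit that called 11.1% of all genes positive and 9.22% negative. Without siNT lapatinib replicate 2, SPRY2 passed (1.62, adjusted p = 0.0248). Without all 4 libraries numbered 2, a choice made after the data were seen, DUSP4 (-0.63), SPRY1 (-0.56) and SPRY2 (1.24) passed, with 10.3% of all genes positive and 7.88% negative. The intervals of SPRY4 (-0.84 to 1.19) and ETV4 (-1.86 to 0.73) each include a difference of 2-fold.

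Other transcripts that ERK is known to induce were read beside these genes. Of 9 such genes, lapatinib lowered 7 and raised none in siNT cells (median log2 fold change -1.08), and again lowered 7 and raised none in siFOXA1 cells (-1.05). Over all genes tested, 29.2% were lower in siNT cells and 29.1% in siFOXA1 cells. Cyclin D1 (CCND1), which drives entry into S phase, changed by -2.18 and -2.33 on the log2 scale with adjusted p values of 1.42e-05 and 7.39e-05. The receptor tyrosine kinase gene EPHA2 changed by -1.97 (adjusted p = 1.36e-05) and -1.79 (5.85e-05). Its relative EPHA4 changed by -0.73 (adjusted p = 0.0258) and -1.88 (7.84e-05), and the former call was lost without siNT DMSO replicate 1 or 3 or siNT lapatinib replicate 3 (adjusted p = 0.0759, 0.0708 and 0.0549). PHLDA1 changed by -2.17 in siNT cells (adjusted p = 0.00105) and by -1.04 in siFOXA1 cells (adjusted p = 0.041), where the groups overlapped and the call was lost when siFOXA1 DMSO replicate 1 or 2 or siFOXA1 lapatinib replicate 1 or 3 was left out (adjusted p = 0.0628, 0.122, 0.134 and 0.13). EGR1, an immediate early factor, changed by -1.08 (adjusted p = 0.00361) and -0.92 (0.00296). FOSL1, an AP-1 subunit, had 18.7, 21.8 and 18.2 normalized counts in siNT DMSO and 1.19, 0 and 1.03 in siNT lapatinib.

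The FOXA1 siRNA gave a mixed picture in the same list. In DMSO it raised 4 of the 9 (EGR1, MYC, IER3 and FOS) and lowered CCND1. In lapatinib, 8 were tested, of which MYC, EGR1 and PHLDA1 rose and CCND1 and EPHA4 fell. Over all genes, 21.9% were higher and 21.3% lower with the siRNA in DMSO, and 22.7% higher and 22.2% lower in lapatinib. MYC, the proliferative transcription factor, had 3913 to 4787 normalized counts in siNT lapatinib and 10314 to 10652 in siFOXA1 lapatinib (log2 fold change 1.27 ± 0.07 SE, adjusted p = 9.94e-06). CCND1 moved the other way (-1.38 ± 0.25, adjusted p = 0.00258). PHLDA1 (1.63, adjusted p = 0.0172) lost its call without siNT lapatinib replicate 1 (adjusted p = 0.0594) or 3 (0.0552). EPHA4 (-0.92, adjusted p = 0.0312) lost its call without replicate 1 or 2 of siFOXA1 lapatinib (adjusted p = 0.0734 and 0.0801) and without replicate 1 or 3 of siNT lapatinib (0.108 and 0.0844). With the replicate block EPHA2 also passed, at adjusted p values of 0.0382 in DMSO and 0.00458 in lapatinib. PHLDA1 (0.00578) and EPHA4 (0.0341) passed with it in DMSO. The interactions of EPHA4 (-1.13) and PHLDA1 (1.07) passed with it at 0.00197 and 0.0167. Without a block, the EPHA4 interaction passed with DESeq2 (adjusted p = 0.0156) but not with edgeR (0.0632), and that of PHLDA1 passed with neither (0.227 and 0.301). The block also added FOS (0.00099) and IER3 (0.0465) to the genes higher with the siRNA in lapatinib, and FOS (0.0308) to those lower with the drug in siNT cells.

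Each of the remaining lists of the pathway had genes called in both directions with lapatinib. The same held with the FOXA1 siRNA, except for the repressors and degraders of ETV4 and ETV5, where none was raised. Over all genes, lapatinib raised 30.5% and lowered 29.2% in siNT cells, and raised 29.0% and lowered 29.1% in siFOXA1 cells. The FOXA1 siRNA raised 21.9% and lowered 21.3% in DMSO, and raised 22.7% and lowered 22.2% in lapatinib. Counts of a list near these shares, here and in the next paragraph, are not particular to that list. Of 21 tested negative regulators outside the 10 genes, lapatinib raised 7 and lowered 7 in siNT cells, and raised 9 and lowered 5 in siFOXA1 cells. The ERK phosphatase genes DUSP9 and DUSP7 were among those lowered, at -1.96 and -1.44 on the log2 scale in siNT cells and -1.26 and -1.18 in siFOXA1 cells. ERRFI1, which encodes an inhibitor of EGFR-family kinases, changed by -0.76 and -1.07 with the drug, and the FOXA1 siRNA raised it by 1.34 in DMSO and 1.03 in lapatinib. CBLB, a ubiquitin ligase gene, rose by 1.25 and 0.98 with the drug. The FOXA1 siRNA raised 5 and lowered 9 of the 21 in DMSO, and raised 6 and lowered 7 of 20 in lapatinib.

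Among 16 adaptor and GTPase genes, lapatinib raised 8 and lowered 3 in siNT cells and raised 6 and lowered 6 in siFOXA1 cells, with GRB7 (2.11 and 1.98) and GAB2 (1.75 and 1.88) highest on the log2 scale. Of 16 cascade kinases and scaffolds it raised 6 and lowered 4, then raised 6 and lowered 5. Of 19 other ETS factors it raised 10 and lowered 6, then raised 10 and lowered 5. The epithelial factor ELF3 rose by 1.35 and 1.42 while ETV1 fell. Of 7 repressors and degraders of ETV4 and ETV5, lapatinib raised 3 and lowered 1, then raised 2 and lowered 1. The lowered gene was CIC (-0.40, adjusted p = 0.00106, and -0.22, adjusted p = 0.00937), and its partner ATXN1L rose by 0.68 and 0.60. The FOXA1 siRNA lowered 3 of these 7 in DMSO, namely CIC (-0.55), DDB1 (-0.24) and RFWD2 (-0.17), and 2 in lapatinib, CIC (-0.38) and DDB1 (-0.20), and raised none in either. DDB1 and RFWD2 encode parts of ubiquitin ligases. In DMSO it raised 4 and lowered 2 of the 16 adaptors, 2 and 3 of the cascade genes and 4 and 3 of the 19 ETS factors. In lapatinib these were 3 and 6 of 15, 3 and 7 of 16, and 4 and 5 of 18.

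Finally, the pattern over the 12 libraries was compared with all other genes of at least 100 mean normalized counts by the root mean square difference of centred log2 values. The genes nearest to DUSP6 among 10805 were RPS6KL1 (0.252), ULBP3 (0.30), SLC48A1 (0.304), LYNX1 (0.307) and CCNJ (0.316). The closest of the genes described here that were ranked was SPRED2 at rank 2743 (0.512). DUSP6 itself lay under the limit of 100, and SPRY2, also under it, was not ranked. The measure depends on the size of a change as well as its direction. SPRY4 and ETV4, which also had lower counts with the drug, were at ranks 10771 and 10772. The same measure was applied to SPRY4 and ETV4 after their values were seen. For SPRY4 the nearest of 10804 genes was PHLDA2 (0.48), with ETV4 second (0.601), and DTL, MCM10 and UHRF1 followed at 0.611, 0.634 and 0.644. For ETV4 the order was PHLDA2 (0.528), SPRY4 (0.601), UHRF1 (0.667), DTL (0.708) and FAM111B (0.72). SPRY4 and ETV4 thus lay at rank 2 of each other, and PHLDA2 changed by -3.58 (siNT) and -3.61 (siFOXA1) on the log2 scale with the drug. DTL and MCM10 act in DNA replication, and they changed with the drug by -4.24 and -5.20 on the log2 scale in siNT cells. The points share libraries and the large drug contrast, so this order is a description and carries no test.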

How the data were processed

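RNAseq of 12 SKBR-3 samples was analyzed. The authors deposited an expected count (estimated reads), a TPM and a normalized signal, which was not used, for each gene. Their methods name Salmon and hg38, whereas the file columns and processing notes name RSEM, and the labels name a stranded and a TruSeq kit. Expected counts were rounded to whole numbers and tested in R 4.3.3 with edgeR 4.0.16 (TMM, quasi-likelihood) on the 6 samples compared, or all 12 for the interaction. Tested genes had 10 counts or more in at least 1 sample. The threshold was a Benjamini-Hochberg adjusted p of 0.05, with a log2 fold change of at least 1 as a second rule. The SE is the fold change over the square root of F. Normalized counts are scaled by TMM to the mean depth. Depth was 25749578 to 32271850 counts. Under 3 counts a gene was not called detected, a limit that covers counting error only.

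Deviations from the group means correlated between samples that share a number (0.267 to 0.696 in 18 pairs over 10812 genes, mean 0.427), so the number was a block in a second fit. Other pairs had a mean of -0.199, which is no separate contrast, because deviations from a group mean cancel within the group. No replicates were duplicates (chi-square per degree of freedom 3.75 to 18.5). Within groups, this was 3.75 to 5.94 between the libraries numbered 1 and 3. For pairs with the library numbered 2 it was 12.7 to 18.5, so those libraries stood apart over all genes in every group. The genes and lists were chosen with earlier results of these data known. Named are the 10 genes, FOXA1, PHLDA1, EPHA2, EPHA4, CCND1, up to 3 called genes per list, comparison and direction with at least 100 mean normalized counts, and the 5 genes most like DUSP6. FOS, FOSL1, ETV1 in full, the genes with an interaction and the patterns of SPRY4 and ETV4 were added after values were seen. Alternatives were other scalings, filters and thresholds, DESeq2 1.42.0, all 12 samples in a single model, each library left out and, added later, the libraries numbered 2 left out. Scripts were tested on simulated data. Positions are from GENCODE (GRCh38) and promoters from RefSeq (GRCh38.p14).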

Additional observations from a re-analysis of the deposited data

Results flagged for a closer look

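None of the 9 tested genes showed a drug effect that differed between the siRNA backgrounds in the interaction fit without a block. Over all 14012 genes, 3.99% had a positive and 3.2% a negative interaction, so a count of none among 9 is close to that share. In the surrounding lists 11 genes passed (edgeR's quasi-likelihood test, Benjamini-Hochberg adjusted p under 0.05), and their values are given without explanation. The genes tested were 9 ERK output genes, 21 negative regulators, 16 adaptors and GTPases, 16 cascade genes, 19 ETS factors and 7 repressors and degraders. Among ERK output genes, MYC had an interaction of 0.52 on the log2 scale (adjusted p = 0.00457), since lapatinib changed it by -0.50 in siNT cells and by 0.01 in siFOXA1 cells. IER3 had an interaction of -0.61 (adjusted p = 0.0437), with drug effects of -0.05 and -0.67. Among negative regulators, RASA3 (0.66) and DUSP8 (0.57) had positive and IL17RD (-0.92) and DUSP16 (-0.54) negative interactions. DUSP8 was lowered in siNT cells (-0.28, adjusted p = 0.0354) and raised in siFOXA1 cells (0.27, adjusted p = 0.00183), and IL17RD, which encodes a membrane inhibitor of the FGF and ERK pathway, was raised only in siNT cells among these comparisons (0.80 against -0.14). The adaptor gene FRS2 had an interaction of -0.25. Of the cascade genes, RPS6KA1 had an interaction of 0.37 and the scaffold gene KSR1 of -1.25 (adjusted p = 0.0283), which was raised in siNT cells (0.50, adjusted p = 0.0481) and lowered in siFOXA1 cells (-0.76, adjusted p = 0.0107). The epithelial ETS factors ELF5 (-0.74) and EHF (-0.62) rose less with the drug in siFOXA1 cells.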

How the results depend on the processing

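The alternatives were run on the 9 tested genes, FOXA1, PHLDA1, EPHA2, EPHA4, CCND1 and ETV1, and none of their called log2 fold changes reversed; the other list genes were not rerun, apart from the block, and the median of all genes moved by less than 0.1 on the log2 scale under each scaling. Counts below are of the 10 genes. With a log2 fold change of at least 1, risen genes of lapatinib in siNT cells were 0, and fallen genes of the FOXA1 siRNA were 0 in DMSO and 0 in lapatinib. At an adjusted p under 0.01 these were 0, 0 and 1. For the FOXA1 siRNA in DMSO, risen genes numbered 2 with DESeq2, 2 with all 12 samples in a single model, 5 with the replicate block and 5 without the libraries numbered 2, and fallen genes numbered 1 with all 12 samples. Leaving out 1 library gave 1 to 5 risen and 1 to 3 fallen genes there, and 1 to 2 fallen genes in lapatinib. Positive interactions numbered 1 without the libraries numbered 2 and 0 to 1 with 1 library left out, and negative ones 2 with the replicate block and 2 without the libraries numbered 2. Among the 10 genes the block changed no call other than those named with it in the text. The cause of these changes was not tested. DUSP6 had 12 to 54 counts a library and ETV5 0 to 2, and each group had 3 samples. The filter of 10 counts in every sample left ETV4 and SPRY4 out of some comparisons.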
